A study of Homo sapiens with 10 samples.

Results

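The genes described here are the MAP kinases of the ERK, JNK and p38 families, the enzymes that DUSP1 and related phosphatases switch off. They were chosen by gene name from a list of 9 symbols, and all 9 were found among the 58735 genes of the count table. RNA was sequenced from A253 cells, a squamous cell carcinoma line of the human salivary gland, in 3 groups of 2 libraries each. The control cells (sgTomato) had a guide RNA that targets dTomato. The labels list 2 pairs of tomato control libraries and do not say which pair belongs to the DUSP1 or the SOX2 experiment. The control columns of the DUSP1 table were taken as the first pair, which was inferred, and that they are the control of these clones was taken from their place in that table. Cl1 and Cl10 are DUSP1-/+ clones, each derived with guides against DUSP1 and heterozygous for the deletion. Each clone is a single line, so what belongs to the DUSP1 deletion and what belongs to the clone cannot be told apart. The labels do not say whether the libraries of a group came from separate cultures, so p-values measure only the spread between these libraries. Library totals were 66584988 and 53223425 counts in the control, 70986593 and 49840300 in Cl1, and 57635596 and 47016495 in Cl10.

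MAP kinases are the last step of a relay in which one kinase activates the next. A MAP kinase kinase adds phosphate to a threonine and a tyrosine in the activation segment of the MAP kinase, which then phosphorylates transcription factors and other kinases. ERK kinases are known for their response to growth factors, and JNK and p38 kinases for their response to stress and cytokines. DUSP1 is a nuclear phosphatase that removes both phosphates, mainly from p38 and JNK. The values below are RNA levels and do not measure phosphorylation.

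The site on which DUSP1 acts is shown for every family member, because the motif in it sets the families apart. The segments below are the coding sequence from the DFG codons to 9 codons past the motif, 5′ to 3′ in hg38, from the GENCODE version 44 annotation. Capitals mark the codons of the threonine, the residue between and the tyrosine. Each segment lies within a single coding exon.
MAPK3 and MAPK7 carry the TEY motif of ERK kinases, MAPK8, MAPK9 and MAPK10 the TPY motif of JNK kinases, and the other 4 the TGY motif of p38 kinases.
MAPK3: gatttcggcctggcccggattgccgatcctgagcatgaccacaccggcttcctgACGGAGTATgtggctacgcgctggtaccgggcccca
MAPK7: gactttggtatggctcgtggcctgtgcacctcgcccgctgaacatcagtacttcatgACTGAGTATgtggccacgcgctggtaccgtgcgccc
MAPK8: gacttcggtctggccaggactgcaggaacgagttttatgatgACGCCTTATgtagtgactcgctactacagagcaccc
MAPK9: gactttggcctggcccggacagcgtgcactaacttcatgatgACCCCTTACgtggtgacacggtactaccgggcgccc
MAPK10: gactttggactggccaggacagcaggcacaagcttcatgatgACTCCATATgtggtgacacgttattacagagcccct
MAPK11: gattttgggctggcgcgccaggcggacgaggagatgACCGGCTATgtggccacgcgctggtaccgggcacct
MAPK12: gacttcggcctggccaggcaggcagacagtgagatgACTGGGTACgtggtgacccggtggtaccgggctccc
MAPK13: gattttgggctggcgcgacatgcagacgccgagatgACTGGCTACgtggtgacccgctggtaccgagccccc
MAPK14: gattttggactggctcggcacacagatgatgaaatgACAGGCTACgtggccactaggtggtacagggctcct
The segments lie at chr16:30118068-30118157 (minus strand) for MAPK3, chr17:19380807-19380899 (plus strand) for MAPK7, chr10:48420209-48420286 (plus strand) for MAPK8, chr5:180249007-180249084 (minus strand) for MAPK9 and chr4:86101086-86101163 (minus strand) for MAPK10. Those of the p38 kinases lie at chr22:50266971-50267042 (minus strand) for MAPK11, chr22:50256122-50256193 (minus strand) for MAPK12, chr6:36136662-36136733 (plus strand) for MAPK13 and chr6:36075854-36075925 (plus strand) for MAPK14.

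The targeted gene was read first. DUSP1 (ENSG00000120129) had 751 and 637 normalized counts in the control, 307 and 348 in Cl1, and 494 and 414 in Cl10, where normalized counts are scaled to the mean library total. Every clone library was below both control libraries. Against the control it was lower, at -1.07 on the log2 scale (SE 0.149, edgeR quasi-likelihood adjusted p = 0.000292) in Cl1 and -0.59 (SE 0.134, adjusted p = 0.0113) in Cl10. Cl10 was above Cl1 by 0.48 (SE 0.13, edgeR adjusted p = 0.00817), and the 50 tested genes nearest to DUSP1 had a median of 0.38 in that comparison. Against the control, the 50 nearest had medians of -0.295 in Cl1 and 0.0908 in Cl10.

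Against the control, 3 of the 9 MAP kinases passed the test in Cl1 and 6 of 9 in Cl10, at an adjusted p under 0.05 over all genes tested. In Cl1 the background was 25.1% of 20153 genes, with 12.4% higher and 12.8% lower, and in Cl10 it was 42.5% of 19875 genes, with 20.6% higher and 21.8% lower. The kinases that passed were MAPK7 and MAPK13, higher, and MAPK11, lower, in Cl1. In Cl10 they were MAPK7, MAPK8, MAPK10 and MAPK13, higher, and MAPK11 and MAPK12, lower. Between the clones, 6 of 9 passed, 3 in each direction, beside 49.0% of 19818 genes, with 24.9% higher and 24.1% lower in Cl10. With 9 genes, these counts are a description, and both clones share the same 2 control libraries. None of the 9 had an absolute log2 fold change above 1 together with an adjusted p under 0.05 by edgeR or DESeq2, a rule met by 7.54% of genes in Cl1, 13.4% in Cl10 and 10.8% between the clones. Between the clones, MAPK3, MAPK7 and MAPK14 did not pass in one fit over the 6 libraries (edgeR adjusted p = 0.0761, 0.13 and 0.17), nor MAPK7 and MAPK14 with DESeq2 (adjusted p = 0.0766 and 0.067). At an unadjusted p under 0.05, edgeR gave 5 of the 9 in Cl1, 7 in Cl10 and 7 between the clones, beside 37.3%, 51.3% and 55.0% of all genes tested. The libraries of the groups did not overlap for 7 kinases in Cl1, 8 in Cl10 and 8 between the clones, beside 63.5%, 73.7% and 74.9% of all genes tested. The median log2 fold change of the 9 was 0.07 in Cl1 and 0.24 in Cl10, beside -0.01 over all genes in each. Their median absolute log2 fold change was 0.31 in Cl1, 0.36 in Cl10 and 0.21 between the clones, beside 0.29, 0.39 and 0.33 over all genes.

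**Figure D1:**
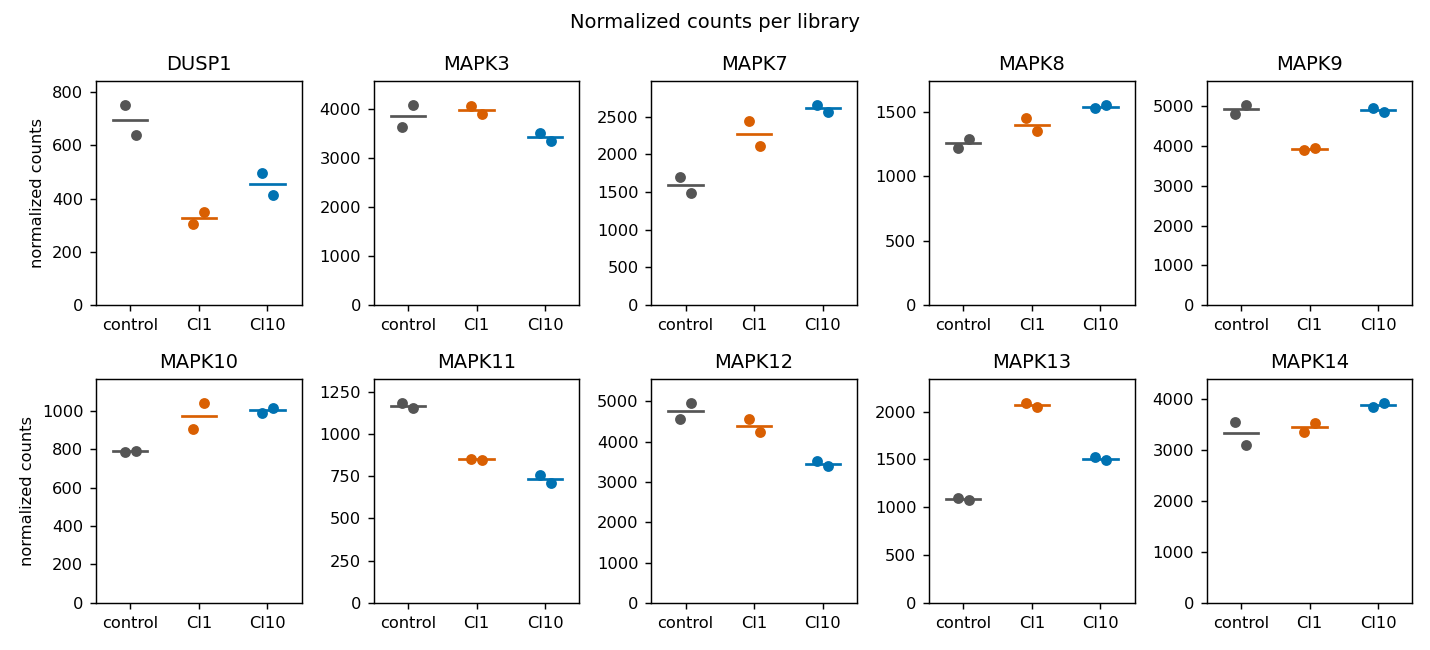
Normalized counts of DUSP1 and the 9 MAP kinases in each library. Points are the 2 libraries of each group, bars their mean, and each axis starts at 0; MAPK13 is highest in Cl1 and MAPK7 is above the control in every clone library.

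**Figure D2:**
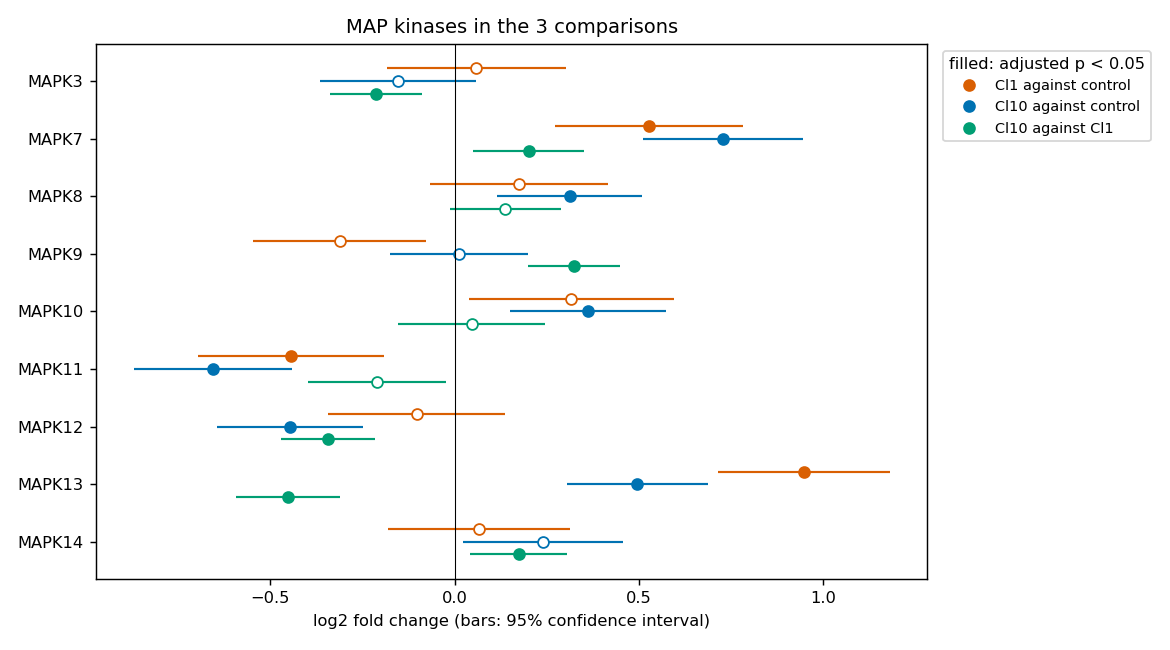
Log2 fold change of each MAP kinase in the 3 comparisons, with bars for the 95% confidence interval. Filled points have an edgeR adjusted p under 0.05; no kinase passes the test with an absolute value above 1.

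MAPK3 (ERK1, ENSG00000102882), a kinase of the growth factor pathway, had 3634 and 4075 normalized counts in the control, 4053 and 3893 in Cl1, and 3500 and 3343 in Cl10. The Cl1 libraries lay within the control range and the Cl10 libraries were below all others. Against the control it was at 0.06 on the log2 scale (SE 0.112, edgeR adjusted p = 0.745) in Cl1 and -0.15 (SE 0.0897, adjusted p = 0.206) in Cl10, neither past the test. Between the clones MAPK3 was lower in Cl10, at -0.21 (SE 0.0575, edgeR adjusted p = 0.00838). Without control replicate 1 the log2 fold change in Cl10 was -0.25, and without control replicate 2 it was -0.07. In this and later fits without 1 library, the lone library of a group was assumed to vary like the others. The difference between the clones was lost without Cl10 replicate 1 (-0.24, adjusted p = 0.0665) or replicate 2 (-0.18, adjusted p = 0.202).

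MAPK7 (ERK5, ENSG00000166484), a large kinase with a transcriptional activation domain that MAP2K5 activates, had 1704 and 1484 normalized counts in the control, 2437 and 2107 in Cl1, and 2653 and 2565 in Cl10. All 4 clone libraries were above both control libraries. MAPK7 was higher in Cl1 by 0.53 on the log2 scale (SE 0.117, edgeR adjusted p = 0.00619) and in Cl10 by 0.73 (SE 0.0918, adjusted p = 0.00107). Without Cl1 replicate 1, which had the higher level, the value in Cl1 was 0.43 (edgeR adjusted p = 0.102). Cl10 was above Cl1 by 0.20 (SE 0.0696, edgeR adjusted p = 0.0295), which did not pass without Cl1 replicate 2 (0.11, adjusted p = 0.103), without Cl10 replicate 1 (0.18, adjusted p = 0.188) or without Cl10 replicate 2 (0.23, adjusted p = 0.0922). MFAP4, on the opposite strand, shares 3.55% of the 2902 bases of the MAPK7 transcript used here, and the strand setting of the counting was not given.

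MAPK8 (JNK1, ENSG00000107643), a broadly expressed JNK, had 1224 and 1291 normalized counts in the control, 1454 and 1351 in Cl1, and 1528 and 1554 in Cl10. Both clones lay above the control, Cl10 highest, with no overlap between groups. The log2 fold change was 0.17 (SE 0.111, edgeR adjusted p = 0.281) in Cl1, not past the test, and 0.31 (SE 0.0829, adjusted p = 0.0216) in Cl10. Its 50 nearest tested genes had medians close to its own values, 0.17 in Cl1 and 0.33 in Cl10, while the 20 nearest had larger ones, 0.36 and 0.52. With the median of the 50 subtracted, MAPK8 was at -0.02 (edgeR adjusted p = 0.897) in Cl10. The call in Cl10 was also lost without Cl10 replicate 1 (0.33, edgeR adjusted p = 0.183) or replicate 2 (0.30, adjusted p = 0.237). Cl10 against Cl1 gave 0.14 (SE 0.0697, edgeR adjusted p = 0.122), and 0.17 without Cl1 replicate 1.

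MAPK9 (JNK2, ENSG00000050748), the other broadly expressed JNK, had 4818 and 5035 normalized counts in the control, 3896 and 3954 in Cl1, and 4960 and 4849 in Cl10. Cl1 was below every other library, and Cl10 lay within the control range. The log2 fold change in Cl1 was -0.31 (SE 0.108, edgeR adjusted p = 0.0522), just short of the test, and in Cl10 it was 0.01 (SE 0.0791, adjusted p = 0.925). Cl10 was above Cl1 by 0.32 (SE 0.0574, edgeR adjusted p = 0.000485). Leaving out control replicate 1 gave -0.35 in Cl1, and leaving out control replicate 2 gave -0.27. Leaving out Cl1 replicate 1 or 2 gave -0.29 and -0.34, and the replicate number as a block gave -0.31 (edgeR adjusted p = 0.126). DESeq2 placed MAPK9 past the threshold in Cl1 (-0.31, adjusted p = 0.0428).

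MAPK9 lies 7.52 Mb beyond DUSP1 on the long arm of chromosome 5, and the genes around it were lower in Cl1 too. Of the 120 tested genes between DUSP1 and the chromosome end, 85.0% had a log2 fold change below 0 in Cl1, and their median was -0.43, against a median of 0.00 for the 821 genes before DUSP1. Of the 120 genes beyond DUSP1, 81 had a lower value than MAPK9 in Cl1. In Cl10 the same stretch had a median of 0.02 over 123 genes, 58 of them (47.2%) below 0, against 0.11 and 42.5% for the 828 genes before DUSP1. The 50 genes nearest to MAPK9 had a median of -0.53 in Cl1, 0.01 in Cl10 and 0.39 in Cl10 against Cl1. With that median subtracted, MAPK9 was at 0.22 in Cl1 (edgeR adjusted p = 0.173) and at -0.07 between the clones (adjusted p = 0.37). The number of copies of this stretch was not tested.

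**Figure D3:**
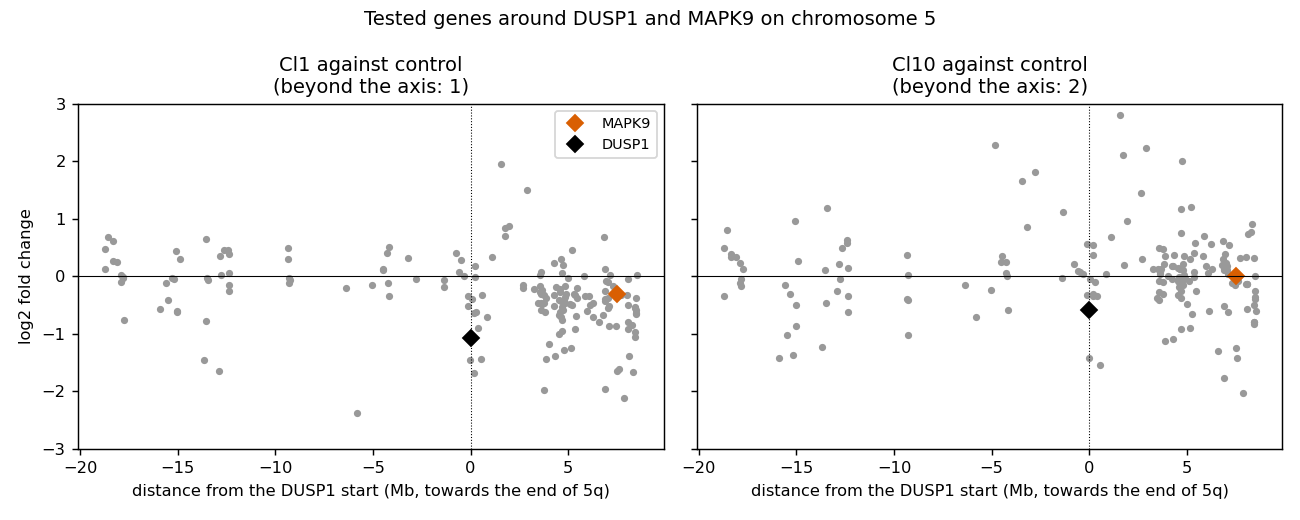
Log2 fold change of tested genes on chromosome 5 by distance from the DUSP1 start in Mb, for Cl1 (left) and Cl10 (right) against the control. Gray points are genes, with MAPK9 and DUSP1 as diamonds; in Cl1 most genes beyond DUSP1 lie below 0 (median -0.43), and in Cl10 they lie around 0.02.

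MAPK10 (JNK3, ENSG00000109339), a JNK best known from neurons, had 786 and 793 normalized counts in the control, 904 and 1042 in Cl1, and 989 and 1014 in Cl10. All clone libraries were above the control, and the clones overlapped each other. Against the control it was at 0.32 on the log2 scale (SE 0.128, edgeR adjusted p = 0.0904) in Cl1, not past the test, and 0.36 (SE 0.0895, adjusted p = 0.0166) in Cl10. The call in Cl10 was lost without Cl10 replicate 1 (0.39, edgeR adjusted p = 0.125) or replicate 2 (0.34, adjusted p = 0.186). In Cl1 the value was 0.43 without Cl1 replicate 1 and 0.20 without Cl1 replicate 2. Between the clones the value was 0.05 (SE 0.0921, edgeR adjusted p = 0.704).

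MAPK14 (p38 alpha, ENSG00000112062), the broadly expressed p38, had 3551 and 3091 normalized counts in the control, 3353 and 3529 in Cl1, and 3830 and 3920 in Cl10. Cl1 overlapped the control, and Cl10 was above all other libraries. The log2 fold change was 0.07 (SE 0.114, edgeR adjusted p = 0.713) in Cl1 and 0.24 (SE 0.0921, adjusted p = 0.0738) in Cl10. The value in Cl10 passed without control replicate 1 (0.33, edgeR adjusted p = 2.49e-09) or replicate 2 (0.14, adjusted p = 0.0125). Cl10 was above Cl1 by 0.17 (SE 0.0608, edgeR adjusted p = 0.031), a call lost without Cl10 replicate 1 (0.20, adjusted p = 0.137) or replicate 2 (0.16, adjusted p = 0.253).

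MAPK11 (p38 beta, ENSG00000185386), the closest relative of p38 alpha, had 1185 and 1152 normalized counts in the control, 854 and 846 in Cl1, and 755 and 709 in Cl10. The 3 groups were separate, with the control highest. MAPK11 was lower in Cl1, at -0.44 (SE 0.116, edgeR adjusted p = 0.0146), and in Cl10, at -0.66 (SE 0.0905, adjusted p = 0.00152). The call in Cl1 was lost without Cl1 replicate 1 (-0.43, edgeR adjusted p = 0.13) or replicate 2 (-0.45, adjusted p = 0.113). Cl10 against Cl1 gave -0.21 (SE 0.0865, edgeR adjusted p = 0.0606), not past the test. This value was -0.22 without Cl1 replicate 1 and -0.21 without Cl1 replicate 2. Without Cl10 replicate 1 it was -0.25, and without Cl10 replicate 2 it was -0.17. Its 50 nearest genes had a median of -0.11 between the clones, and with that median subtracted MAPK11 was at -0.10 (edgeR adjusted p = 0.354).

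MAPK12 (p38 gamma, ENSG00000188130), a p38 first known from skeletal muscle, had 4569 and 4964 normalized counts in the control, 4549 and 4232 in Cl1, and 3528 and 3385 in Cl10. Cl10 was far below the other libraries, while the nearest Cl1 and control libraries almost met. Against the control it was at -0.10 on the log2 scale (SE 0.111, edgeR adjusted p = 0.541) in Cl1 and -0.45 (SE 0.0842, adjusted p = 0.00562) in Cl10, and -0.34 (SE 0.0587, adjusted p = 0.000383) between the clones. Without control replicate 1 or 2 the value in Cl1 was -0.17 or -0.04, and without Cl1 replicate 2 it was -0.06. The call against the control was lost without Cl10 replicate 1 (-0.47, edgeR adjusted p = 0.074) or replicate 2 (-0.42, adjusted p = 0.117). MAPK12 and MAPK11 lie 1996 bases apart on chromosome 22, and the 50 genes nearest to them had medians of 0.03 in Cl1 and -0.05 in Cl10. HDAC10 shares 29.7% of all annotated exon bases of MAPK12 on the same strand, so reads there may have been assigned to neither gene or to either. The canonical MAPK12 transcript, used here for its length, shares no exon bases with HDAC10.

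MAPK13 (p38 delta, ENSG00000156711), a p38 known from keratinocytes and other epithelia, had 1094 and 1074 normalized counts in the control, 2092 and 2045 in Cl1, and 1522 and 1496 in Cl10. The 3 groups were far apart, Cl1 highest and the control lowest. MAPK13 was higher in Cl1 by 0.95 on the log2 scale, a fold of 1.93 (SE 0.108, edgeR adjusted p = 6.56e-05), and in Cl10 by 0.50, a fold of 1.41 (SE 0.0809, adjusted p = 0.00309). Cl10 was below Cl1, at -0.45 (SE 0.0646, edgeR adjusted p = 9.12e-05). In each of the 13 other fits MAPK13 kept an adjusted p under 0.05 in these 3 comparisons, though it met no rule that also asks for an absolute log2 fold change above 1. The values ran from 0.88 to 0.96 in Cl1, from 0.37 to 0.50 in Cl10 and from -0.51 to -0.38 between the clones. MAPK14 lies 16.6 kb away on chromosome 6, and the 50 genes nearest to MAPK13 had medians of -0.01 in Cl1 and 0.03 in Cl10.

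Among 11655 genes with a mean CPM of 5 or more, the 5 whose centred log2 CPM over the 6 libraries was closest to that of MAPK13 were NTNG2, GPER1, ATP1B3, ANXA8 and GALNT2. Their root mean square difference from MAPK13 ran from 0.0392 for NTNG2 to 0.067 for GALNT2. Against the control, NTNG2 was at 1.03 on the log2 scale in Cl1 and 0.52 in Cl10.

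Levels of different kinases were compared per kilobase of the canonical transcript. In the control, MAPK12 (2681 ± 157, SD, n = 2) and MAPK3 (2157 ± 174) were highest, followed by MAPK9 (1027 ± 32.0), MAPK14 (787 ± 77.0), MAPK7 (549 ± 53.7) and MAPK11 (483 ± 9.75). MAPK8 (216 ± 8.09), MAPK13 (172 ± 2.20) and MAPK10 (90.4 ± 0.508) were lowest, and no neighbours in this order overlapped between libraries. In Cl1 the order was MAPK12 (2469 ± 126, SD, n = 2), MAPK3 (2223 ± 63.3), MAPK9 (818 ± 8.52), MAPK14 (815 ± 29.4), MAPK7 (783 ± 80.6), MAPK11 (351 ± 2.46), MAPK13 (328 ± 5.22), MAPK8 (241 ± 12.6) and MAPK10 (111 ± 11.2), and MAPK9, MAPK14 and MAPK7 overlapped. In Cl10 it was MAPK12 (1944 ± 56.7, SD, n = 2), MAPK3 (1915 ± 62.1), MAPK9 (1022 ± 16.4), MAPK14 (918 ± 15.1), MAPK7 (899 ± 21.4), MAPK11 (303 ± 13.5), MAPK8 (265 ± 3.15), MAPK13 (239 ± 2.99) and MAPK10 (115 ± 2.06), where MAPK12 and MAPK3, and MAPK14 and MAPK7, overlapped. The order depends on the length used: per kilobase of all annotated exon bases MAPK12 had 512 in the control, below MAPK3 with 1051 and MAPK9 with 550.

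Within the JNK kinases, MAPK9 made up 77.0% ± 0.0558 (SD, n = 2) of the counts per kilobase in the control, 69.9% ± 0.303 in Cl1 and 72.9% ± 0.588 in Cl10. MAPK8 made up 16.2% ± 0.113 (SD, n = 2), 20.6% ± 1.2 and 18.9% ± 0.375, and MAPK10 6.78% ± 0.168, 9.51% ± 0.895 and 8.18% ± 0.212. The share of MAPK9 was lower in both clones than in the control, under each of the 3 scalings. In Cl10 the level of MAPK9 itself lay within the control range (log2 fold change 0.01), and MAPK8 and MAPK10 were higher. Within the p38 kinases, MAPK12 made up 65.0% ± 2.74 (SD, n = 2) in the control, 62.3% ± 1.54 in Cl1 and 57.1% ± 0.692 in Cl10, and MAPK14 19.1% ± 2.19, 20.6% ± 1.29 and 27.0% ± 0.905. MAPK13 made up 4.16% ± 0.122 (SD, n = 2), 8.27% ± 0.0863 and 7.02% ± 0.0321, and MAPK11 11.7% ± 0.431, 8.87% ± 0.172 and 8.90% ± 0.245. Per kilobase of all annotated exon bases the share of MAPK12 in the control was 32.2%, near the 30.9% of MAPK14 and with a different order in each control library, and MAPK12 was below MAPK14 in Cl1 (29.6% against 32%) and Cl10 (25.9% against 40.1%). Without scaling to length MAPK12 was ahead in the control (46.1% against 32.1%) and behind in Cl10 (36.1% against 40.5%), so which of them leads depends on the scale. With 2 libraries a group, no exact permutation test could reach the threshold, and the shares were not tested.

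**Figure D4:**
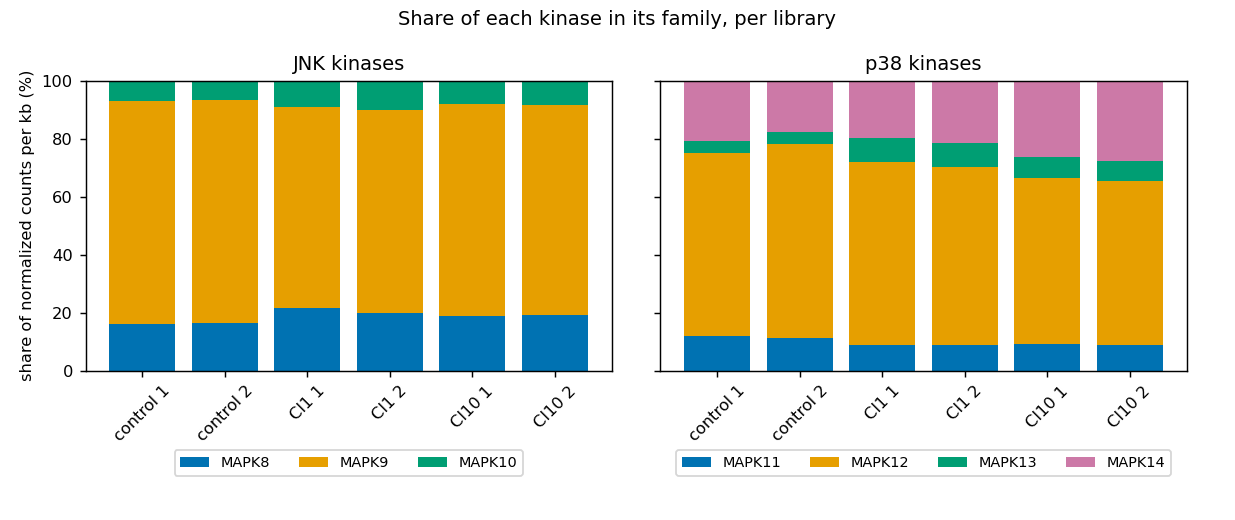
Share of each JNK kinase (left) and p38 kinase (right) in the summed normalized counts per kilobase of its family, in percent, for each of the 6 libraries. MAPK9 is the largest JNK share in each library, and the MAPK13 share is higher in all clone libraries (means of 8.27% and 7.02%) than in the control (4.16%).

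The other genes of the pathway were taken from 8 lists, of which 76 of 81 genes were tested. In Cl1, 13 were higher and 15 lower than in the control, and in Cl10, 22 were higher and 20 lower, beside the 25.1% and 42.5% of all genes that passed. Of the 7 MAP kinase kinases, 1 passed the test in Cl1 and 3 in Cl10. MAP2K5, the activator of MAPK7, was lower in both clones, at -0.78 (edgeR adjusted p = 0.000693) in Cl1 and -0.34 (adjusted p = 0.0397) in Cl10. MAP2K6 and MAP2K3, activators of p38, were higher in Cl10, by 1.45 (edgeR adjusted p = 0.00273) and 0.37 (adjusted p = 0.0165). In Cl1 they had values of 0.20 and 0.15 that did not pass. The mean CPM of MAP2K6 was low, at 1.27, beside 130.5 for MAP2K3.

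Of the 23 tested kinases a step above, 6 were higher and 4 lower in Cl1, and 10 were higher and 6 lower in Cl10. Over all genes tested, 12.4% were higher and 12.8% lower in Cl1, and 20.6% and 21.8% in Cl10. MAP3K5, a stress-activated kinase upstream of JNK and p38, was higher by 0.70 in Cl1 (edgeR adjusted p = 0.00058) and 1.30 in Cl10 (adjusted p = 7.63e-05). MAP3K14 was higher by 0.70 (edgeR adjusted p = 0.000959) and 0.96 (adjusted p = 0.000289), and MAP3K15 was lower, at -0.90 (adjusted p = 0.0208) and -1.35 (adjusted p = 0.00814). The level of MAP3K15 was low, at a mean CPM of 1.02. MAP3K1 was at 0.11 in Cl1 and higher by 0.94 in Cl10 (edgeR adjusted p = 0.00422). Its control libraries lay apart, at 1192 and 823.8 normalized counts, beside 1812 and 2014 in Cl10. Of the 11 scaffolds, 3 were higher and 3 lower in each clone. SPAG9, a JNK scaffold, was lower in Cl10, at -0.997 (edgeR adjusted p = 0.00106), and at -0.01 in Cl1. KSR2 was higher in Cl10 by 0.97 (edgeR adjusted p = 0.0308) and at -0.02 in Cl1. The control libraries lay far apart for KSR2, at 380.7 and 199.5 normalized counts, beside 487.6 and 636.5 in Cl10. MAPK8IP3 was higher in Cl1 by 0.69 (edgeR adjusted p = 0.00249), and MAPK8IP1 lower, at -0.94 (adjusted p = 0.0258). In Cl10 they were at 0.24 and -0.58, not past the test. The mean CPM of MAPK8IP1 was 1.08.

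Downstream, 1 of 10 tested kinases that MAP kinases activate was higher in Cl1, and 2 were higher and 2 lower in Cl10. The shares over all genes tested were 12.4% higher and 12.8% lower in Cl1, and 20.6% and 21.8% in Cl10. RPS6KA4 was higher in both, by 0.43 (edgeR adjusted p = 0.0272) and 0.97 (adjusted p = 0.000234). RPS6KA2 and MKNK2 were lower in Cl10, at -0.97 (edgeR adjusted p = 0.00198) and -0.29 (adjusted p = 0.0237), and MAPKAPK3 was higher by 0.39 (adjusted p = 0.00683). In Cl1 these 3 were at -0.12, 0.16 and 0.22, not past the test. Of 10 transcription factors that MAP kinases phosphorylate, 3 were lower in Cl1, and 1 was higher and 3 lower in Cl10. MEF2C, a target of MAPK7 and p38, had 433 and 390 normalized counts in the control, 73.2 and 75 in Cl1, and 4.90 and 1.19 in Cl10, which are 5 and 1 raw counts. It was lower in Cl1, at -2.46 (edgeR adjusted p = 1.73e-06), and in Cl10, at -6.98 (adjusted p = 4.04e-05). DDIT3 was lower in Cl1, at -1.66, and in Cl10, at -2.40, and ELK3 at -0.70 and -0.45, each past the test. JUN was higher in Cl10 by 1.21 (edgeR adjusted p = 0.000125), and had 0.31 (adjusted p = 0.052) in Cl1.

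Of the 10 MAP kinase phosphatases, DUSP1 among them, 2 were higher and 3 lower in Cl1, and 3 were higher and 4 lower in Cl10. Among all genes tested, 12.4% were higher and 12.8% lower in Cl1, and 20.6% and 21.8% in Cl10. DUSP4 was lower in Cl1, at -1.42 (edgeR adjusted p = 6.1e-06), and in Cl10, at -0.55 (adjusted p = 0.00357), while DUSP6, which acts on ERK, was higher by 0.85 (adjusted p = 0.00197) and 1.35 (adjusted p = 0.000215). DUSP2 was higher by 0.94 (edgeR adjusted p = 0.00223) and 1.09 (adjusted p = 0.00289). PTPRR, a tyrosine phosphatase of ERK kinases, was the 1 of 3 listed genes that could be tested, and was lower in both, at -1.49 (edgeR adjusted p = 1.8e-05) and -0.80 (adjusted p = 0.00165). Of the 4 atypical MAP kinases, MAPK4 was higher in Cl1 by 1.11 (edgeR adjusted p = 0.00965) and MAPK15 in Cl10 by 2.38 (adjusted p = 7.8e-05). In the other clone MAPK4 was at 0.73 (edgeR adjusted p = 0.0506) and MAPK15 at 0.62 (adjusted p = 0.0632). The mean CPM was 1.10 for MAPK4 and 3.67 for MAPK15.

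The labelled cell type was read from marker genes. The summed CPM of 12 squamous epithelial markers was 16120 and 16010 in the control, 17630 and 18220 in Cl1, and 16360 and 15980 in Cl10, with KRT5 the most abundant. The summed CPM of the 6 fibroblast markers was 50.9 and 44.5 in the control, 43.4 and 48.0 in Cl1, and 30.3 and 32.2 in Cl10, lowest in Cl10, with COL1A1 the most abundant and COL1A2 and LUM at no more than 3 counts in any library. For 4 leukocyte markers it was 6.29 and 7.03 in the control, 13.2 and 10.2 in Cl1, and 10.1 and 8.95 in Cl10, higher in every clone library, with CD14 the most abundant and CD3E at no more than 3 counts. Endothelial markers summed to 4.506 and 2.743 in the control, 5.395 and 7.644 in Cl1, and 4.216 and 3.275 in Cl10, highest in Cl1. VWF was the most abundant of them, and KDR and PECAM1 had no more than 3 counts in any library. The part of these markers in the results was not tested. Salivary acinar markers summed to at most 0.170, and 5 of the 6 had no more than 3 counts in any library.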

How the data were processed

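RNA of A253 cells was sequenced as paired-end, poly(A)-selected libraries. The deposited values are raw counts per gene, which the authors made after HISAT2 alignment to hg38; their methods name HTSeq for this step and the submitters' processing notes StringTie. The annotation, strand setting and rule for reads of overlapping genes are not given in the sources used here, and the labels and the methods name different library kits. The SOX2 libraries were not analysed here. A marker gene is not reported here. Members and lists were chosen with earlier results of these data known. Counts were tested with edgeR 4.0.16 in R 4.3.3 (filterByExpr, TMM, glmQLFit, glmQLFTest, Benjamini-Hochberg over all genes tested), with DESeq2 1.42.0 as an alternative, in a separate fit for each comparison. Standard errors are the absolute log2 fold change over the square root of F. Levels use TMM scaling over 6 libraries. The canonical transcript of GENCODE version 44 gave lengths, a choice made after the annotation was seen, since all annotated exons together overstate them. Shares within the ERK kinases were not computed, since the members hold only part of that family. Named genes are the 9 members, DUSP1, for each pathway list up to 4 genes with a mean CPM of at least 1 and an adjusted p under 0.05 in either clone, by size of the log2 fold change, and the 5 genes most like MAPK13. Alternatives covered normalization, filter, test, samples, replicate block, neighbouring genes and, added after the data were seen, a trend on GC content and length and the exon length.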

Additional observations from a re-analysis of the deposited data

Results flagged for a closer look

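The clones differed from each other in 6 of the 9 MAP kinases by the edgeR quasi-likelihood test of Cl10 against Cl1, at an adjusted p under 0.05 over all genes tested, beside 49.0% of all genes. The log2 fold change of Cl10 against Cl1 was -0.45 for MAPK13, -0.34 for MAPK12 and -0.21 for MAPK3, lower in Cl10, and 0.32 for MAPK9, 0.20 for MAPK7 and 0.17 for MAPK14, higher in Cl10. MAPK3, MAPK7 and MAPK14 did not pass in one fit over the 6 libraries or without either Cl10 library, MAPK7 and MAPK14 did not pass with DESeq2, and MAPK9 was at -0.07 after subtraction of its neighbours' median. Each clone is 1 line, so what goes with its DUSP1 RNA level and what goes with the clone cannot be told apart.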

How the results depend on the processing

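Without normalization factors (library size only) MAPK3 and MAPK14 turned in Cl1, to -0.00974 and -0.00207, and without a filter MAPK9 in Cl10 was at -0.00652. With the trend on GC content and length subtracted, an alternative chosen after the data were seen, MAPK9 was at -0.0438 in Cl10 and MAPK10 at -0.00348 between the clones. With the median of the 50 nearest genes subtracted, MAPK8 was at -0.00112 in Cl1 and -0.0155 in Cl10, MAPK9 at 0.216 in Cl1 and -0.0665 between the clones, and MAPK10 at -0.0687 between the clones. Without 1 library, MAPK3 in Cl1 ran from -0.0279 to 0.151, MAPK14 in Cl1 from -0.0233 to 0.163, MAPK9 in Cl10 from -0.0335 to 0.0412 and MAPK10 between the clones from -0.0748 to 0.157. The cause was not tested. Other changes of side at the threshold were MAPK9 in Cl1, which passed with library size only (-0.38, edgeR adjusted p = 0.0229), in one fit (-0.31, adjusted p = 0.014) and after subtraction of the trend on GC content and length (-0.32, adjusted p = 0.0476), and MAPK10 in Cl1, which passed in one fit (0.31, adjusted p = 0.0441) and with the neighbours' median subtracted (0.45, adjusted p = 0.0239). Between the clones, library size only lost MAPK3 (-0.14, edgeR adjusted p = 0.0598) and gained MAPK8 (0.21, adjusted p = 0.0287), and MAPK14 was lost with the neighbours' median (0.16, adjusted p = 0.0533) or that trend (0.15, adjusted p = 0.0599) subtracted.

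The number of the 9 kinases past the test was 3 in Cl1, 6 in Cl10 and 6 between the clones. In one fit over the 6 libraries it was 5 in Cl1, 6 in Cl10 and 3 between the clones, beside 29.9%, 43.9% and 36.8% of all genes, and with an absolute log2 fold change above 1 it was 0 in each by edgeR. Without 1 library it ran from 1 to 4 in Cl1, from 3 to 8 in Cl10 and from 3 to 8 between the clones, while the share of all genes past the test ran from 13.1% to 34.5%, from 24.5% to 57.2% and from 34.3% to 52.2%. There the lone library was assumed to vary like the others. By a chi-square test, libraries of a group differed beyond counting noise (p under 0.05, not adjusted) in 58.5% of 15278 genes for the control. The share was 47.3% of 15213 genes for Cl1 and 23.6% of 14925 for Cl10. The expected split came from library totals without TMM factors, which were 0.9416 and 1.0008 in Cl1, so differences in scaling enter these shares. These shares also depend on library depth and on the genes used, so they do not measure the spread itself, but the assumption may not hold. Every call gained or lost without a control, Cl1 or Cl10 library rests on that assumption. With the replicate number as a block it was 3 in Cl1, 6 in Cl10 and 6 between the clones, with no member gained or lost. Over all genes the block gave 4841 calls in Cl1, 8681 in Cl10 and 9894 between the clones, beside 5064, 8439 and 9706 without it. Deviations of same-numbered libraries correlated at -0.069 between control and Cl1, -0.0162 between control and Cl10 and 0.00811 between the clones, over 20638 genes, so the numbers were not taken as pairs.

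Without scaling to length, the JNK shares of MAPK8, MAPK9 and MAPK10 were 18%, 70.6% and 11.3% in the control, 22.3%, 62.3% and 15.4% in Cl1, and 20.7%, 65.9% and 13.4% in Cl10. On that scale, the p38 shares of MAPK11, MAPK12, MAPK13 and MAPK14 were 11.3%, 46.1%, 10.5% and 32.1% in the control, 7.91%, 40.8%, 19.2% and 32% in Cl1, and 7.65%, 36.1%, 15.8% and 40.5% in Cl10. Per kilobase of all annotated exon bases, added after the data were seen, the JNK shares of MAPK8, MAPK9 and MAPK10 were 18.6%, 78.7% and 2.65% in the control, 23.9%, 72.3% and 3.77% in Cl1, and 21.8%, 75% and 3.22% in Cl10. On that scale, the p38 shares of MAPK11, MAPK12, MAPK13 and MAPK14 were 27.3%, 32.2%, 9.68% and 30.9% in the control, 19.9%, 29.6%, 18.5% and 32% in Cl1, and 19%, 25.9%, 15% and 40.1% in Cl10. By that length, levels of MAPK3, MAPK7, MAPK8, MAPK9, MAPK10, MAPK11, MAPK12, MAPK13 and MAPK14 in the control were 1051, 307, 130, 550, 18.5, 435, 512, 154 and 492. In Cl1 they were 1083, 437, 145, 438, 22.8, 316, 471, 294 and 509, with the kinases listed as above. In Cl10 they were 933, 502, 159, 548, 23.5, 272, 371, 215 and 574, with the kinases listed as above.

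With 20 in place of 50 nearest genes, their median was 0.357 for MAPK8 in Cl1. In Cl10 it was -0.192 for MAPK3, 0.263 for MAPK7, 0.516 for MAPK8 and -0.0905 for MAPK14. Between the clones it was -0.138 for MAPK3, 0.168 for MAPK8, 0.297 for MAPK10, and 0.0159 for MAPK11 and MAPK12. The other medians moved by less than the standard error of the kinase's log2 fold change. With 2 libraries per group, single clones and shared controls, the spread between cultures and between clones of one genotype is not measured.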
